A study of Mus musculus with 5 samples.

Results

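Yap1, Wwtr1, Tead1, Lats2, Ankrd1, Amotl2, Ccn1 and Ccn2 are core factors, feedback regulators and targets of YAP-TEAD signalling. They are followed here in fibroblasts of mouse pancreatic tumours, together with Ccn3 and Ccn5 of the CCN family. Ccn3 and Ccn5 are not on the list of YAP and TAZ targets used below. The 10 members were chosen by name, and all 10 were present among the 15180 protein-coding genes of the deposited table. All 10 passed the filter on low values (a mean of at least 10 over the 5 libraries). KPC tumours model pancreatic cancer in the mouse. Once tumours had formed, mice received LDE225 (sonidegib, an inhibitor of the Hedgehog signal transducer Smoothened) or vehicle by oral gavage for 14 days, giving 2 LDE225 libraries and 3 vehicle libraries. All 5 libraries came from live cells positive for the fibroblast surface protein podoplanin and negative for CD45, EpCAM and E-cadherin. How the tumours arose, the age of the mice and the number of mice behind a library are not stated in the labels, so p-values measure only the spread between these libraries, part of which may be technical.

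YAP, encoded by Yap1, and TAZ, encoded by Wwtr1, are transcriptional coactivators that respond to cell shape, matrix stiffness and growth signals. The Hippo kinases, LATS2 among them, phosphorylate both proteins and keep them out of the nucleus, and in the nucleus they act on DNA through the TEAD factors. Their best-known targets include the secreted CCN proteins CCN1 and CCN2, the ankyrin repeat protein ANKRD1 and the angiomotin-like protein AMOTL2. YAP and TAZ activity is controlled largely by phosphorylation and location of the proteins, which RNA levels do not measure. In bulk samples, fewer cells of a type and less RNA per cell cannot be told apart.

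Library depth, as whole reads recovered from the deposited values, was 13671817 and 14083280.0 with LDE225 and between 7578822 and 11194991 with vehicle. The libraries of the vehicle group stood apart from each other. On the first principal component the LDE225 libraries lay at -39.1 and -41.1, vehicle 2 at 65.2, and vehicle 1 and vehicle 3 at 8.32 and 6.69, and on the second component vehicle 1 lay at 70.7 and all others below 0. Gli1, the standard readout of Hedgehog signalling, had 22.5 and 14.4 normalised counts with LDE225, against 315, 463 and 264 with vehicle (log2 fold change -4.16 ± 0.34, SE, limma adjusted p = 0.0355), a call that was lost in edgeR (adjusted p = 0.0552) and without vehicle 1, vehicle 3 or either LDE225 library. DESeq2 called it too (adjusted p = 2.0e-20), and with 1 library left out its limma log2 fold change stayed between -4.46 and -3.85. Fibroblast markers were abundant in every library, with the 9 markers summing to between 1125998 and 1214343 normalised counts with LDE225 and between 627970.4 and 1220795 with vehicle.

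None of the 10 members passed the test. At an adjusted p under 0.05 (limma, adjusted by the Benjamini-Hochberg method across the 13183 genes tested), 0 members were called, where 0.0303% of all genes were called in either direction, 0.0228% higher and 0.00759% lower, and the adjusted p of the members lay between 0.146 and 0.991. At an unadjusted p under 0.05, limma gave 3 members higher with LDE225 (Ccn3, Amotl2 and Ccn1) and 0 lower, where 6.92% of all genes were higher and 5.71% lower. On the recovered reads edgeR's quasi-likelihood test called 0 members (0.0152% of all genes in either direction). DESeq2 called 1 member, Ccn3, as higher, where it called 4.10% of all genes, 2.32% higher and 1.78% lower. Log2 fold changes were positive for 8 members and negative for 2, with a median of 0.19, where 50.4% of all genes were positive with a median of 0.0030. The groups did not overlap for 6 of the 10 members, where they did not overlap for 31.8% of all genes. Both LDE225 libraries lay above every vehicle library for 5 of them (Ccn5, Ccn3, Amotl2, Ccn1 and Lats2), where 16.6% of all genes did so, and below every vehicle library for Tead1 alone, where 15.2% of all genes did so. Without vehicle 1 these counts were 5 higher and 2 lower (26.0% and 26.2% of all genes), and without LDE225 2 they were also 5 and 2 (26.0% and 25.2%).

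**Figure D1:**
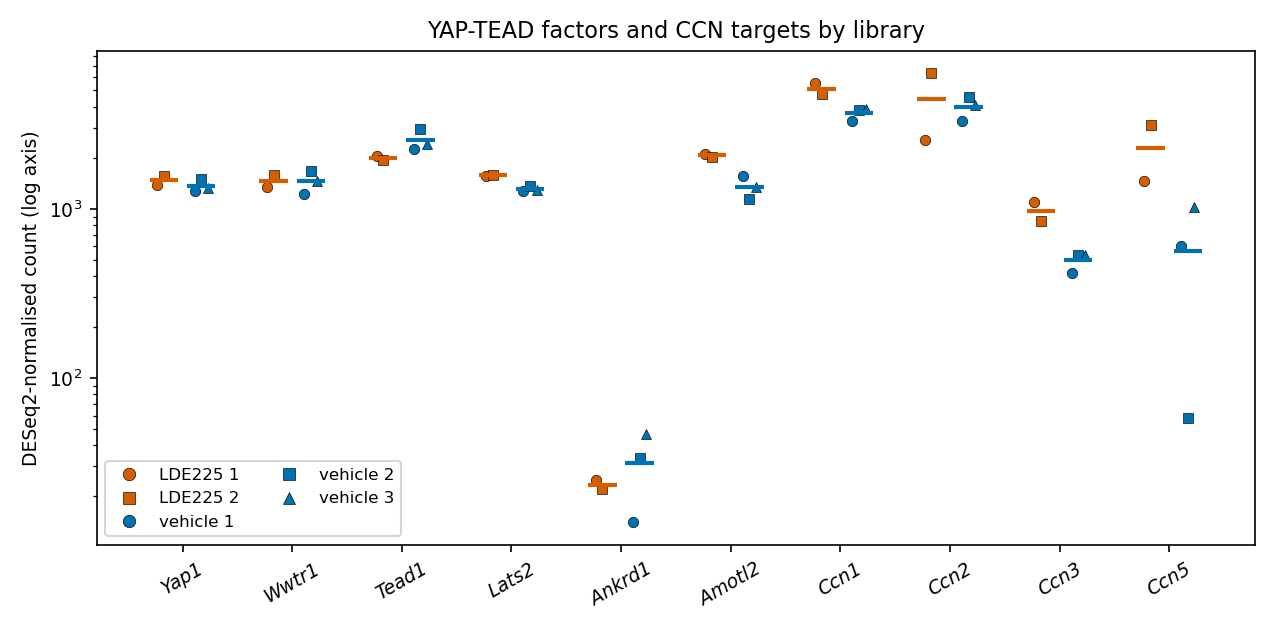
DESeq2-normalised counts (log axis) of the 10 genes, with orange points for the 2 LDE225 libraries, blue points for the 3 vehicle libraries and a bar for each group mean. Ccn5 ranged from 57.9 to 3136 over the 5 libraries, while Yap1 stayed between 1267 and 1569.

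Yap1 (ENSMUSG00000053110.13, chromosome 9 from 7931999 to 8004596, minus strand, GRCm38) had 1387 and 1569 normalised counts with LDE225, against 1267, 1506 and 1329 with vehicle. The groups overlapped, and the highest library held only 1.24 times the lowest. This gave a log2 fold change of 0.11 ± 0.15 (SE, limma adjusted p = 0.810). Wwtr1 (ENSMUSG00000027803.14, chromosome 3 from 57455649 to 57575910, minus strand) had 1345 and 1592 normalised counts with LDE225, against 1216, 1682 and 1455 with vehicle. Both LDE225 libraries lay inside the vehicle range, and the log2 fold change was 0.025 ± 0.18 (limma adjusted p = 0.972). The ratio of Wwtr1 to Yap1 normalised counts within a library was 0.969 and 1.01 with LDE225, against 0.960, 1.12 and 1.09 with vehicle. Neither the 2 coactivator genes nor their balance thus differed between the groups beyond the spread of the libraries. An exon of Yap1 overlaps Gm20416 on the opposite strand, and since no source used here gives the strand setting of the counting, reads of the pair cannot be told apart.

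Tead1 (ENSMUSG00000055320.17, chromosome 7 from 112679318 to 112906807, plus strand) encodes a DNA-binding partner of YAP and TAZ. It had 2038 and 1939 normalised counts with LDE225, against 2262, 2949.9 and 2411 with vehicle. Both LDE225 libraries were the lowest of the 5, and the group means were 1989 ± 70.2 (SD, n = 2) with LDE225 and 2541 ± 362 (SD, n = 3) with vehicle. The log2 fold change of -0.34 ± 0.16 did not pass the test (limma adjusted p = 0.458).

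The 8 tested genes of the list of YAP, TAZ, TEAD and VGLL factors had a median log2 fold change of 0.013, and limma called 0 of them in either direction. Its widest difference was in Vgll3, a member of the vestigial-like family of TEAD cofactors. Vgll3 had 1812 and 1841 normalised counts with LDE225, against 874, 599 and 794 with vehicle (log2 fold change 1.29 ± 0.19, limma adjusted p = 0.0958). Every LDE225 library lay above every vehicle library. DESeq2 called Vgll3 alone of the list (adjusted p = 1.07e-05), where 2.32% of all genes were called higher, while edgeR called 0 genes of the list. The related cofactor gene Vgll4 averaged 516 ± 38.9 normalised counts with LDE225 (SD, n = 2) and 424 ± 36.5 with vehicle (SD, n = 3), at a log2 fold change of 0.28 ± 0.16. The TEAD gene Tead2 averaged 229.6 ± 37.8 normalised counts with LDE225 and 349 ± 128 with vehicle, and its groups overlapped. Across the list, the groups did not overlap for 2 genes with LDE225 higher and for 1 with LDE225 lower (16.6% and 15.2% of all genes).

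Lats2 (ENSMUSG00000021959.16, chromosome 14 from 57689662 to 57758388, minus strand) encodes a Hippo kinase that is itself a target of YAP, a negative feedback. It had 1569.8 and 1576 normalised counts with LDE225, against 1276, 1354 and 1288 with vehicle. All 3 vehicle libraries were lower than both LDE225 libraries, at a log2 fold change of 0.27 ± 0.13 (limma adjusted p = 0.458). Lats2 shares exon sequence on the same strand with the predicted gene Gm49361, so reads may be divided between them. Gm49361 was listed at 0 in both LDE225 libraries and had 189, 31.9 and 15.1 normalised counts with vehicle. The sum of both genes was 1569.8 and 1576 with LDE225, against 1464, 1386 and 1303 with vehicle, so the groups remained apart at a log2 ratio of the means of 0.18.

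Among the 25 Hippo kinases and upstream regulators, 2 of which (Lats2 and Amotl2) are also members, limma called 0, 13 log2 fold changes were positive and 12 negative, and the median was 0.0061. At an unadjusted p under 0.05, 5 were higher and 1 lower (6.92% and 5.71% of all genes), edgeR called 0, and DESeq2 called Dchs1 and Fat4 (4.10% of all genes in either direction). The groups did not overlap for 8 higher and 4 lower (16.6% and 15.2% of all genes). These 2 genes encode large cadherins that bind each other between cells, known best as inputs to the Hippo pathway in Drosophila. Dchs1 had 1597 and 1641 normalised counts with LDE225, against 802, 705 and 839.7 with vehicle (log2 fold change 1.05 ± 0.14, limma adjusted p = 0.0913). Fat4 had 269 and 387 with LDE225, against 125, 85.9 and 178 with vehicle (log2 fold change 1.37 ± 0.34, limma adjusted p = 0.202). For both cadherin genes each LDE225 library was above each vehicle library. Ajuba, which encodes a LIM protein that binds LATS kinases, averaged 142 ± 39.7 normalised counts with LDE225 (SD, n = 2) and 318 ± 107 with vehicle (SD, n = 3), at a log2 fold change of -1.13 ± 0.33 (limma adjusted p = 0.254).

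Amotl2 (ENSMUSG00000032531.15, chromosome 9 from 102716672 to 102733418, plus strand) encodes an angiomotin family protein that binds YAP and is a common readout of YAP and TAZ. It had 2115 and 2031 normalised counts with LDE225, against 1552, 1137 and 1347 with vehicle. The LDE225 libraries differed little from each other and both lay above the vehicle range, with means of 2073 ± 59.6 with LDE225 (SD, n = 2) and 1345 ± 208 with vehicle (SD, n = 3). The log2 fold change was 0.63 ± 0.17 (limma adjusted p = 0.220; DESeq2 adjusted p = 0.0641). DESeq2 called the gene without vehicle 1 (adjusted p = 0.00684), but not without vehicle 2 or vehicle 3. These fits were added after the data were seen.

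Ankrd1 (ENSMUSG00000024803.9, chromosome 19 from 36111961 to 36120099, minus strand) was the lowest member, with 24.9 and 22 normalised counts with LDE225, against 14.0, 33.8 and 46.6 with vehicle. Between 11 and 40 reads per library stand behind these values, and both LDE225 libraries lay inside the vehicle range. The log2 fold change was -0.26 ± 0.61 (limma adjusted p = 0.904) and was 0.094 without vehicle 3, so that its direction rested on that library.

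The promoter windows of Ccn1, Amotl2 and Ankrd1, from RefSeq (GRCm38.p6), show the letters that TEAD factors are known to bind in these targets, the first 2 of which had non-overlapping groups while Ankrd1 did not. Each window runs from 250 bases before to 50 bases after a RefSeq start of the gene, and positions below are counted from that start. RefSeq starts can differ from the GENCODE coordinates given for the members. The windows of Amotl2, Ankrd1 and Lats2 lie wholly inside those coordinates. Capitals mark the word GGAATG, searched on both strands (CATTCC where it lies on the other strand). The windows are chr3:145649936-145650235 on the minus strand for Ccn1, chr9:102717554-102717853 on the plus strand for Amotl2 and chr19:36119795-36120094 on the minus strand for Ankrd1.
Ccn1: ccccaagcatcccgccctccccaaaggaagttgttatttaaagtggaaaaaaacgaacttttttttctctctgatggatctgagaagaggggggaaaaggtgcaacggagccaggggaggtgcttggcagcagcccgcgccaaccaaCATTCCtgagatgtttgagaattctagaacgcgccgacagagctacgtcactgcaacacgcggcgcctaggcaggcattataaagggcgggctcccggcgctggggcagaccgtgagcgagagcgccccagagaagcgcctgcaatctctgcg
Amotl2: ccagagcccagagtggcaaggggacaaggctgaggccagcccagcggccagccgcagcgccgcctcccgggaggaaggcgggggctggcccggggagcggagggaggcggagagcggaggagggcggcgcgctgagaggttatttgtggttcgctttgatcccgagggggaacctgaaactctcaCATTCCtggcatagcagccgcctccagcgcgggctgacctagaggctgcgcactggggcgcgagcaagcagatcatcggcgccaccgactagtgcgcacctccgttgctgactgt
Ankrd1: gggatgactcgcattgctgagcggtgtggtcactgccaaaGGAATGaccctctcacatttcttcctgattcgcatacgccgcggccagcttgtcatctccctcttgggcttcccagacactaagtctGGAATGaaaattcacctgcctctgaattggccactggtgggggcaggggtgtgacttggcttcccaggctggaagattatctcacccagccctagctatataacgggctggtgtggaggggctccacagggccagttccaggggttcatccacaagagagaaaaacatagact
The word begins 103 bases before the start of Ccn1, 65 bases before the start of Amotl2, and 210 and 123 bases before the start of Ankrd1. RefSeq windows were matched for 6 of the 10 members (Yap1, Wwtr1, Lats2, Ankrd1, Amotl2 and Ccn1), and all 6 held the word in at least 1 window, as did 16.6% of all 27025 genes with a window. In Yap1 it begins 141 bases before the start, in Wwtr1 136 or 170 bases before the 2 annotated starts, and in Lats2 4 bases after the first of 2 starts. The CArG box bound by serum response factor was in 0 of the 6 (1.81% of all genes). A relaxed form of the GLI motif, GNCCNCCCA, was in 1 of the 6 (Lats2), against 7.59% of all genes. The word was thus present both in genes with separated groups and in genes without, and a match of letters is not evidence of binding.

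Ccn1 (ENSMUSG00000028195.4, chromosome 3 from 145646976 to 145649981, minus strand) encodes CYR61, a matricellular protein that binds integrins. It had 5513 and 4737 normalised counts with LDE225, against 3319.7, 3838 and 3877 with vehicle. Both LDE225 libraries exceeded every vehicle library, with means of 5125 ± 549 with LDE225 (SD, n = 2) and 3678 ± 311 with vehicle (SD, n = 3). On the log2 scale the fold change was 0.48 ± 0.16 (limma adjusted p = 0.304; DESeq2 adjusted p = 0.110).

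Ccn2 (ENSMUSG00000019997.11, chromosome 10 from 24595442 to 24598683, plus strand) encodes CTGF, connective tissue growth factor, a secreted protein long tied to fibrosis. It had 2564 and 6326 normalised counts with LDE225, against 3313, 4584 and 4117 with vehicle. The LDE225 libraries thus held both the lowest and the highest value of the 5, a spread of 2.47 times within the group. The log2 fold change was 0.021 ± 0.37 (limma adjusted p = 0.991), and it was 0.67 without LDE225 1 and -0.63 without LDE225 2, so no direction can be given for Ccn2. Its exons overlap those of Gm15270 on the opposite strand, with the same limit as for Yap1.

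The balance of Ccn1 and Ccn2 differed more between the LDE225 libraries than among the vehicle libraries. As a ratio of counts, not scaled for length, it can be compared only between libraries. The ratio of Ccn1 to Ccn2 normalised counts was 2.15 in LDE225 1 and 0.749 in LDE225 2, against 1.0, 0.837 and 0.942 with vehicle. The vehicle ratios lay between those of the LDE225 libraries, so this difference is between 2 libraries of 1 group.

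Ccn3 (ENSMUSG00000037362.8, chromosome 15 from 54745702 to 54754039, plus strand) encodes NOV, a CCN protein that opposes some actions of CCN2. It had 1103 and 844 normalised counts with LDE225, against 418, 536 and 529.9 with vehicle. The lowest LDE225 library was well above the highest vehicle library, and the means were 973 ± 183 with LDE225 (SD, n = 2) and 495 ± 66.4 with vehicle (SD, n = 3), a ratio of 1.97. The log2 fold change was 0.97 ± 0.19 (limma adjusted p = 0.146; edgeR adjusted p = 0.156), the smallest adjusted p of the 10 members in limma. DESeq2 called Ccn3 higher (0.98, adjusted p = 0.00322), and its call held without vehicle 1, 2 or 3 (adjusted p between 0.00988 and 0.0249) and was absent without LDE225 1 (adjusted p = 0.408) or LDE225 2 (adjusted p = 0.0621). The ratio of Ccn3 to Ccn2 normalised counts was 0.430 in LDE225 1 and 0.133 in LDE225 2, against 0.126, 0.117 and 0.129 with vehicle. Relative to Ccn2, Ccn3 was therefore well above vehicle in LDE225 1 and only just above it in LDE225 2.

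Ccn5 (ENSMUSG00000027656.7, chromosome 2 from 163820861 to 163833146, plus strand) encodes WISP2, which lacks the carboxy-terminal domain that the other CCN proteins carry. It had 1453 and 3136 normalised counts with LDE225, against 600.2, 57.9 and 1027 with vehicle. The highest vehicle library held 17.7 times the lowest, and both LDE225 libraries were above all 3. The means were 2295 ± 1189.7 with LDE225 (SD, n = 2) and 562 ± 486 with vehicle (SD, n = 3), and the log2 fold change of 2.69 ± 1.14 did not pass the test (limma adjusted p = 0.402). The ratio of the means was 4.08, and DESeq2 gave a smaller log2 fold change of 2.03 (adjusted p = 0.546). Without vehicle 2 the log2 fold change was 1.44 in limma (adjusted p = 0.293), and DESeq2 called the gene (1.48, adjusted p = 0.0133). DESeq2 did not call Ccn5 without vehicle 1 or vehicle 3. The ratio of Ccn5 to Ccn2 normalised counts was 0.567 and 0.496 with LDE225, against 0.181, 0.0126 and 0.2495 with vehicle, so the groups were apart on this ratio too.

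**Figure D2:**
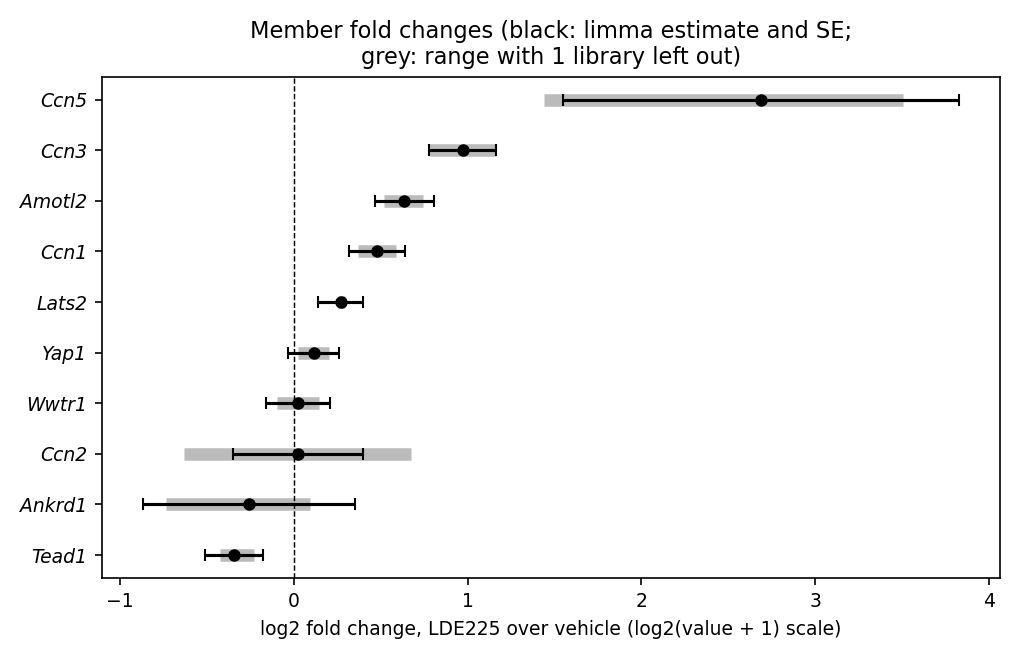
Log2 fold changes of LDE225 over vehicle (log2(value + 1) scale) for the 10 members, with black points and bars for the limma estimate and its SE and grey bars for the range when 1 library was left out. Ccn5 (2.69) and Ccn3 (0.97) lie farthest to the right, and the grey bars of Ccn2, Ankrd1 and Wwtr1 cross 0.

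Among the CCN family, Ccn4 (WISP1) averaged 1644 ± 176 normalised counts with LDE225 (SD, n = 2) and 1929.7 ± 649 with vehicle (SD, n = 3), and its groups overlapped (log2 fold change -0.18 ± 0.28, limma adjusted p = 0.844). Limma called 0 of the 5 CCN genes tested, edgeR called 0 and DESeq2 called Ccn3 as higher (2.32% of all genes). The groups did not overlap for 3 of the 5 with LDE225 higher and for 0 with LDE225 lower (16.6% and 15.2% of all genes).

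The order of the libraries for Ccn5 was LDE225 2, LDE225 1, vehicle 3, vehicle 1 and vehicle 2, from high to low. This was also the order of 5 of 9 genes listed as inflammatory fibroblast markers, where 2.38% of all genes tested had it. The 5 were Clec3b, Dpt, Pi16, Ly6c1 and Svep1. It was the order of 4 of 23 immediate-early and dissociation genes, 2 of 25 Hippo regulators and 1 of 9 fibroblast markers, and the comparison was chosen after the values were seen. Clec3b, which encodes the secreted lectin tetranectin, had 1799.5 and 3059 normalised counts with LDE225, against 217, 38.6 and 1163 with vehicle. Dpt, which encodes the matrix protein dermatopontin, had 6924 and 10735 with LDE225, against 853, 213 and 4092 with vehicle. Both markers were lowest in vehicle 2 and highest in LDE225 2, as Ccn5 was. Il6, Has1, Cxcl12 and Col14a1 of the same list did not have the order of Ccn5, so the order was not that of the list as a whole. Il6 had 1890 and 3213 normalised counts with LDE225, against 779, 981 and 3065 with vehicle. Has1 was also higher in vehicle 3 (7697) than in LDE225 1 (3687), and Cxcl12 and Col14a1 were lowest in vehicle 1. The 9 inflammatory markers together summed to 80768 and 101343 normalised counts with LDE225, against 17954, 14498 and 46113 with vehicle, and their part in the Ccn5 result was not tested.

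Likeness was measured as the root mean square difference of log2 values centred on the 5 libraries, over genes with a mean of at least 50. The gene most like Ccn5 was Scara5, a scavenger receptor gene, at 0.196, where the median over 10938 genes was 1.96. Scara5 had 2531 and 7083 normalised counts with LDE225, against 925, 109 and 2169 with vehicle. It was followed by Dchs2 (0.441) and Pamr1 (0.456). The genes most like Ccn3 were F3 (0.0941) and Dcxr (0.103), where the median was 0.559. Those most like Ccn2 were Tmtc1 (0.0458), Inafm2 (0.120) and Glcci1 (0.130), and Tmtc1 had 438 and 1165 normalised counts with LDE225, against 585, 839 and 767 with vehicle. Tmtc1 thus shared the low value of Ccn2 in LDE225 1 and the high value in LDE225 2. For Ccn1 the nearest genes were Commd4 (0.0498), Mmut (0.0509) and Dse (0.0531), and for Ankrd1 they were Bcat1 (0.0945), Gmppb (0.134) and Phlda1 (0.145). No gene named here was among the nearest of more than 1 member.

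**Figure D3:**
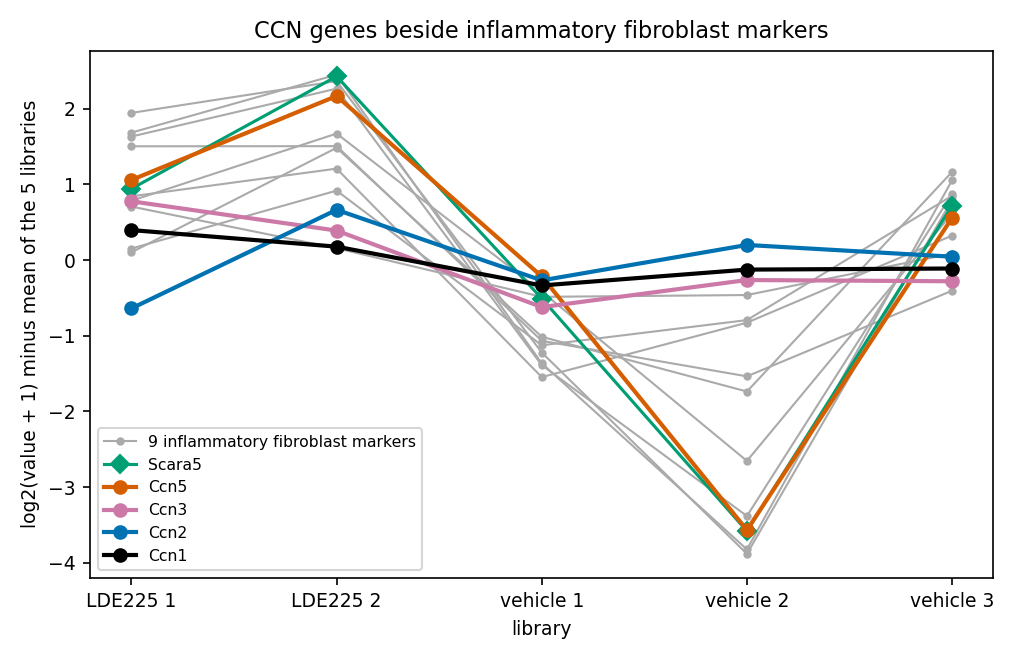
Log2(value + 1) minus the mean of the 5 libraries (vertical axis) in each library (horizontal axis), for Ccn1, Ccn2, Ccn3 and Ccn5, for Scara5 and for 9 inflammatory fibroblast markers in grey. Ccn5 and Scara5 run together through all 5 libraries with their lowest point in vehicle 2, while Ccn2 is lowest in LDE225 1 and highest in LDE225 2.

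Levels were set on a common scale as normalised counts per kilobase of annotated exon (GENCODE M21), a length that differs from the one used in the authors' counting. With LDE225, Ccn1 was highest at 2538 ± 272 per kilobase (SD, n = 2), followed by Ccn2 at 1553 ± 929.8 and Ccn5 at 1193 ± 618. Below these came Ccn3 at 339 ± 64.0 per kilobase, Amotl2 at 329.6 ± 9.47, Wwtr1 at 307 ± 36.5 and Lats2 at 226 ± 0.662. Yap1 at 159.7 ± 13.8 and Tead1 at 147 ± 5.17 per kilobase followed, and Ankrd1 was lowest at 8.12 ± 0.718. Within this order the libraries of Ccn2 and Ccn5 overlapped, as did those of Ccn3, Amotl2 and Wwtr1 and those of Yap1 and Tead1. With vehicle the order began with Ccn1 at 1822 ± 154 per kilobase and Ccn2 at 1399.7 ± 225 (SD, n = 3), then Wwtr1 at 304 ± 48.8 and Ccn5 at 292 ± 252. Amotl2 at 214 ± 33.0, Lats2 at 187 ± 6.02, Tead1 at 187 ± 26.7, Ccn3 at 172 ± 23.1 and Yap1 at 148 ± 13.4 per kilobase followed, each overlapping its neighbour, and Ankrd1 was again lowest at 10.9 ± 5.69. By group mean, Ccn1 and Ccn2 thus had the most abundant transcripts of the members in both groups. Wwtr1 RNA had a higher level per kilobase than Yap1 RNA in all 5 libraries. Their counts were close (ratio of Wwtr1 to Yap1 from 0.960 to 1.12), so this difference rests on the annotated exon lengths of 4779 and 9257 bases.

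The wider signature of YAP and TAZ targets, a list of 22 genes known from human cancers of which 5 are also members, was not called in any of its genes by limma. Its median log2 fold change was 0.087, with 14 positive and 8 negative, and the median was -0.12 without LDE225 2 and 0.31 without LDE225 1, so the list as a whole had no stable direction. At an unadjusted p under 0.05, 6 genes were higher and 0 lower (6.92% and 5.71% of all genes), edgeR called 0, and DESeq2 called F3, Igfbp3 and Rbms3 as higher (2.32% of all genes). Igfbp3, which encodes an insulin-like growth factor binding protein, had 10045 and 12294 normalised counts with LDE225, against 5603, 2471 and 2356 with vehicle (log2 fold change 1.80 ± 0.39, limma adjusted p = 0.164). F3, which encodes tissue factor, had 871 and 559.5 with LDE225, against 291, 357 and 389 with vehicle (log2 fold change 1.02 ± 0.24, limma adjusted p = 0.186). Rbms3, an RNA-binding protein gene, averaged 2410.2 ± 211 normalised counts with LDE225 and 1665 ± 38.7 with vehicle (log2 fold change 0.53 ± 0.14, limma adjusted p = 0.210). For all 3 the groups did not overlap, as for 7 genes of the list in that direction and 1 in the other (16.6% and 15.2% of all genes).

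A list of serum response factor genes, whose actin-dependent targets share inputs with YAP in stiff tissue, had mostly negative log2 fold changes. Besides targets it holds Srf and the cofactor genes Mrtfa and Mrtfb, and both cofactor genes were positive (0.18 and 0.23). Of its 18 genes, 15 were negative, with a median of -0.38, where 50.4% of all genes were positive. Limma called 0, with 5 at an unadjusted p under 0.05, all lower (5.71% of all genes). DESeq2 called 3 as lower, Tpm2, Tpm1 and Actn1 (1.78% of all genes), and edgeR called 0. Summed over the list, normalised counts were 57348 and 61339 with LDE225, against 55387, 94646 and 84564 with vehicle, so vehicle 1 lay below both LDE225 libraries. Acta2, the smooth muscle actin gene, had 1762 and 2314 normalised counts with LDE225, against 1991, 6821 and 6728 with vehicle, with vehicle 1 inside the LDE225 range. Markers of myofibroblasts and of pericytes and smooth muscle, which share Acta2, Tagln, Myl9 and Myh11 with this list, had median log2 fold changes of -0.70 and -0.73, and their part in these values was not tested. Tpm2, a tropomyosin gene, had 675 and 806 normalised counts with LDE225, against 1189, 1606 and 1554 with vehicle (log2 fold change -0.96 ± 0.19, limma adjusted p = 0.137). All 3 vehicle libraries were above both LDE225 libraries. Tpm1, another tropomyosin gene, averaged 1875 ± 172 with LDE225 (SD, n = 2) and 3611 ± 1028 with vehicle (SD, n = 3). Actn1, the alpha-actinin gene, averaged 4373 ± 280.5 with LDE225 and 6369.8 ± 459.7 with vehicle, and Zyx, the zyxin gene, averaged 1213 ± 82.6 with LDE225 and 1609 ± 162 with vehicle. These 4 genes, named for their small p, were lower in both LDE225 libraries than in every vehicle library, as were 6 of the 18 in all, and 1 of the 18 was higher in both (15.2% and 16.6% of all genes).

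Ccn1 and Ccn2 also respond quickly to serum and stress, as immediate-early genes do, and cell dissociation can raise such genes. The 23 immediate-early and dissociation genes summed to 184986 and 226707 normalised counts with LDE225, against 177909, 94378 and 180277 with vehicle. The sum was lowest in vehicle 2, and 19 of the 23 log2 fold changes were positive (50.4% of all genes) with a median of 0.37. Limma, edgeR and DESeq2 each called 0, and limma gave 0 at an unadjusted p under 0.05. The groups did not overlap for 8 of the 23 with LDE225 higher and for 1 with LDE225 lower (16.6% and 15.2% of all genes). Egr1, an immediate-early transcription factor gene, averaged 13403 ± 1335 with LDE225 (SD, n = 2) and 8539 ± 2637 with vehicle (SD, n = 3), at a limma adjusted p of 0.418. By unadjusted p, the next genes were Ier2 (log2 fold change 0.48), Zfp36 (0.55) and Hspa1a (0.37), while Atf3 (1.16) and Klf4 (1.03) had the highest fold changes of the list. Ccn1 was lowest in vehicle 1 and not in vehicle 2, and the part of these genes in its values was not tested.

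Transforming growth factor beta also acts on Ccn2. Of 14 genes of its pathway and response, limma called 0, 8 were positive and 6 negative, and the median was 0.022. The groups did not overlap for 1 with LDE225 higher and for 2 with LDE225 lower (16.6% and 15.2% of all genes). Tgfbr2, which encodes the type II receptor, had 15185 and 18037 normalised counts with LDE225, against 6021, 5636 and 8177 with vehicle (log2 fold change 1.34 ± 0.23, limma adjusted p = 0.129). DESeq2 called Tgfbr2 alone of the list (adjusted p = 4.06e-06), where 2.32% of all genes were called higher. Smad3, which encodes a signal transducer of the pathway, averaged 1251 ± 56.5 with LDE225 and 1944 ± 306 with vehicle (log2 fold change -0.62 ± 0.17, limma adjusted p = 0.233). The ligand gene Tgfb1 (-0.88 ± 0.41) and Ltbp2 (-0.67 ± 0.26), which encodes a relative of the latent TGF-beta binding proteins, were also negative. The receptor gene was thus above vehicle in both LDE225 libraries and Smad3 below it in both, and neither passed limma's test.

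**Figure D4:**
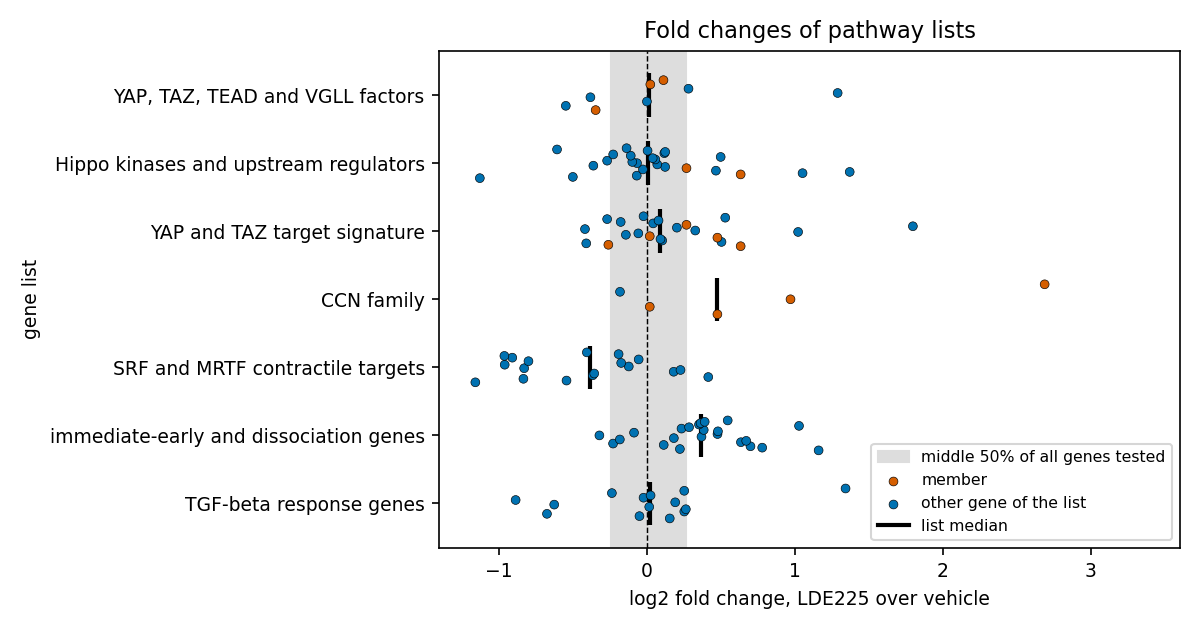
Log2 fold changes of LDE225 over vehicle for the genes of 7 lists, with members in orange, other genes in blue, a black bar at each list median and a grey band for the middle 50% of all genes tested. The YAP, TAZ, TEAD and VGLL factors and the Hippo regulators have medians of 0.013 and 0.0061. The genes of the contractile list lie mostly below 0 with a median of -0.38.

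Markers of other cells that the sort could hold were also measured. The 8 mesothelial markers summed to 6891 and 5111 normalised counts with LDE225, against 14948, 8274 and 9398 with vehicle. All 8 log2 fold changes were negative, with 0 called by limma and 4 called lower by DESeq2 (1.78% of all genes). These 4 were Msln, Upk1b and the keratin genes Krt8 and Krt19, which are also on the epithelial list. Mesothelial sums were thus lower in both LDE225 libraries than in every vehicle library, as they were without the 3 keratins that the epithelial list shares (3667 and 3549 with LDE225, against 10349, 3869 and 4826 with vehicle). The 9 markers of blood endothelium summed to 919 and 1365 with LDE225, against 1372, 513 and 2114 with vehicle, and Emcn was at 0 in LDE225 1. The 8 markers of pericytes and smooth muscle summed to 2516 and 5099 with LDE225, against 3488, 6779.5 and 6225 with vehicle, a sum below every vehicle library in LDE225 1 alone. The 10 epithelial markers summed to 6363 and 2347 with LDE225, against 7172, 6394 and 6615 with vehicle. Without Krt8, Krt18 and Krt19, which are also on the mesothelial list, the other 7 summed to 3140 and 785 with LDE225, against 2573, 1989 and 2043 with vehicle. Epithelial markers other than the shared keratins were thus highest in LDE225 1 and lowest in LDE225 2. The 6 lymphatic markers summed to 899.8 and 1171 with LDE225, against 997, 307 and 1881 with vehicle, and the 9 macrophage markers to 617 and 939 with LDE225, against 967, 411 and 705 with vehicle. The myofibroblast markers summed to 42675 and 49551 with LDE225, against 35264, 79627 and 61013 with vehicle, and the Schwann cell markers to at most 36.2 in any library. Endothelial, lymphatic and macrophage sums were thus lowest in vehicle 2, the library with the least Ccn5. The sum of the immediate-early and dissociation genes was lowest there too. The part of these cells in the members' values was not tested.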

How the data were processed

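RNA from sorted tumour fibroblasts was sequenced with a directional, ribosome-depleted library kit, per the labels' protocols. The deposited signal per gene is a read count divided by a DESeq2 size factor by the authors, not log-transformed and not scaled for length. Per the submitters' processing notes, which give no roles, STAR 2.7.3, RSEM 1.2.29, DESeq2 1.22.2 and GRCm38 were used. All deposited values were whole multiples of their library's smallest positive value (tolerance 0.001 reads, 100% of values), and these multiples were taken as whole reads. Another 3 columns without a header were not used, and 23 symbols turned into dates were restored by identifier.

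The main test was limma 3.58.1 (R 4.3.3, with a mean trend), two-sided, on log2(value + 1) of the 13183 genes whose mean reached 10, with Benjamini-Hochberg adjustment over all of them and a threshold of 0.05. Fold changes on this scale understate changes of low genes. edgeR 4.0.16 and DESeq2 1.42.0 were run on the recovered reads. No exact permutation test was used, since the 10 possible arrangements allow no two-sided p under 0.2. No pair of libraries agreed within counting noise (chi-square per degree of freedom from 22.8 to 125), so all 5 were kept.

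Members and lists were chosen with earlier results of these data known. Lists are described by counts and medians, without a set test. Besides the members, the text names Gli1, up to 4 genes per pathway list by smallest unadjusted p, selected cell type markers, and the 3 most similar genes of 5 members, except 1 gene that is not reported here. Genes called by DESeq2 or overlapping a member were added by name after their values were seen. Coordinates and exon lengths are those of GENCODE M21 (GRCm38) by identical versioned identifier. Alternatives were the pseudocount, the filter, the scaling, the variance model, the tool, a replicate block and leaving out each library.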

Additional observations from a re-analysis of the deposited data

How the results depend on the processing

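Of 169 values of the 10 members under 17 alternatives, 158 kept their direction and 11 did not, and 1 passed the test (Ccn3 in DESeq2). These 17 do not include the DESeq2 fits with 1 library left out. Those fits also called Ccn3 (without vehicle 1, vehicle 2 or vehicle 3), Amotl2 (without vehicle 1) and Ccn5 (without vehicle 2). Their reversals, in Wwtr1 and Ccn2, are given below. Rescaling to the same total shifted the median of all genes by -0.13 and gave log2 fold changes of -0.020 for Yap1, -0.11 for Wwtr1 and -0.11 for Ccn2, all above that shift, and with quantile normalisation Wwtr1 had -0.042 and Ccn2 -0.11. Leaving out 1 library gave log2 fold changes (limma) ranging from -0.097 to 0.15 for Wwtr1, from -0.63 to 0.67 for Ccn2, from -0.74 to 0.094 for Ankrd1 and from -0.42 to 0.067 for Ccn4, and in DESeq2, added after seeing the data, Wwtr1 had -0.11 and Ccn2 -0.64 without LDE225 2, and Wwtr1 -0.092 without vehicle 1. The median of the members stayed between 0.15 and 0.32 with 1 library left out. That of the target signature ranged from -0.12 to 0.31, and was -0.046 with the same total and -0.068 with quantile normalisation. Members with separated groups ranged from 5 to 7 (LDE225 higher) and from 1 to 2 (lower) with 1 library left out. The share of all genes rose as well, to between 21.5% and 28.1% higher and between 20.1% and 26.6% lower. With all 5 libraries it was 16.6% and 15.2%. The count of 7 was without LDE225 1, where the share was 28.1%.

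Limma called 3 genes higher and 1 lower. Counts ranged from 0 to 6 and from 0 to 4 with 1 library left out, where a lone LDE225 library is assumed to vary like the others. They were 300 and 230 in DESeq2, and 0 were lower in edgeR and in limma without trend, and 2 with the same total. The replicate numbers are not said to pair libraries: deviations of same-numbered libraries correlated at 0.13 and -0.017. The fit with the replicate block, to which vehicle 3 adds nothing, called 16 and 5 and gave Ankrd1 0.094. The cause of these changes was not tested. Depth limits Ankrd1, with at most 40 reads in a library.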

Other observations

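The TEAD word GGAATG was also counted in the RefSeq windows of the pathway lists. It was held by 7 of 15 matched genes of the YAP and TAZ target signature, by 5 of 7 matched YAP, TAZ, TEAD and VGLL factors, and by 7 of 21 matched Hippo kinases and upstream regulators. Among the matched genes of the serum response factor list, 6 of 15 held the word and 4 of 15 held a CArG box. It was in 2 of 19 immediate-early genes and in 0 of 8 genes of the TGF-beta list. Over all genes with a window the shares were 16.6% for the TEAD word and 1.81% for the CArG box. These are counts of letters in a short window, the lists share genes, and no test was made.

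Ptch1, a Hedgehog target, had 179 and 207 normalised counts with LDE225, against 459, 1079.6 and 526 with vehicle. The log2 fold change of Ptch1 was -1.72 ± 0.36 (SE, limma adjusted p = 0.159), and DESeq2 called the gene (adjusted p = 9.1e-04). Its lowest vehicle value was in vehicle 1 and its highest in vehicle 2. Ccn5 was lowest in vehicle 2, and a link between Ptch1 and Ccn5 was not tested.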
